A study of Mus musculus with 55 samples.

Results

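The genes followed here carry the signal of the B cell antigen receptor from the membrane into the cell. They are 7 genes chosen by name: Grb2, an adaptor protein, Vav1 and Vav2, guanine nucleotide exchange factors, Plcg2, which encodes phospholipase C gamma 2, Prkcb and Prkcd, which encode protein kinases C beta and C delta, and Bcl10, an adaptor that leads to NF-kB. All probe sets that the array annotation assigns to these symbols were taken, which gave 10 probe sets, 6 on the first array set and 4 on the second, called the b set, out of 13069. The 7 genes are 7 of the 6137 genes that have a probe set with 1 symbol.

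When antigen binds the receptor, tyrosine kinases at the membrane phosphorylate adaptors that gather these proteins. Phospholipase C gamma 2 cleaves a membrane lipid into diacylglycerol, which activates protein kinase C, and inositol trisphosphate, which releases calcium. Protein kinase C beta acts through the Carma, Bcl10 and Malt proteins to switch on NF-kB, Vav proteins activate Rac and reshape actin, and Grb2 brings the Ras activator Sos. In bone marrow the same route serves first the pre-B cell receptor, carried by large pre-BII cells, and later the surface IgM of immature B cells.

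The study measured RNA from 5 populations sorted from mouse bone marrow. By their labels these were B220+ c-kit+ pre-BI cells (6 preparations), B220+ CD25+ surface Ig- large pre-BII cells (5) and small pre-BII cells (5), immature B cells that are B220 low and surface IgM+ (5), and mature B cells that are B220 high and surface IgM+ (5). A preparation is 1 numbered sort of 1 population, and all 26 were measured on both array sets. No group was treated or mutant, the strain and age of the mice are not given in the sources used here, and whether each sort used other animals is not stated, so the p-values reflect only how much the sorts of a population differ, which may be technical.

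Before normalisation, the brightest array had a trimmed mean 5.598-fold that of the dimmest in the first set and 4.22-fold in the b set. Levels below are quantile-normalised intensities on the linear scale, and a noise limit estimated from the negative values lay at 251 for the first set, which 40.02% of its values exceeded, and at 319 for the b set, which 20.1% exceeded. Levels are set side by side only within a probe set. The sorts fall into 2 ranges of numbers, 1 to 3 (11 preparations) and 8 to 11 (15 preparations), and each population holds both. The values of 1 mature B array of the first set had been deposited under 2 titles, and they were counted once, as sort 11. The 2 ranges stand apart on a control: the middle probe set for 18S ribosomal RNA read 3741 to 14192 on first-set arrays of sorts 1 to 3 and at most 28 on those of sorts 8 to 11. Of the transcripts behind the sort markers, Kit was above the noise limit in 2 of 26 preparations (mean 285 in pre-BI cells) and Il2ra, which encodes CD25, in 1 of 26. The brightest of 11 stage markers, Cd74 and H2-Aa, both of antigen presentation, averaged 20317 and 19855 in mature B cells and 1074 and 819.7 in pre-BI cells. The terminal transferase gene Dntt averaged 12.1 in mature B cells and 8026 in pre-BI cells, and Fcer2a, which encodes CD23, averaged 6485 in mature B cells and −14.4 in pre-BI cells. Because these are bulk samples, fewer cells of a type and less RNA per cell cannot be told apart.

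The stretches of genome in front of 4 of the genes that varied are shown because those of Prkcd and Plcg2 share an E-box, which those of Bcl10 and of Vav1, like Prkcd and Plcg2 highest in immature B cells, do not hold. RefSeq held a window of 250 bases before to 50 bases after the start for all 7 genes (GRCm38.p6), and where a gene had 2 windows, as Prkcd and Grb2 did, the one farthest upstream was used. The windows, printed 5′ to 3′ on the gene's strand, are Prkcd at chr14:30626159-30626458 (minus strand), Plcg2 at chr8:117498025-117498324 (plus), Vav1 at chr17:57278850-57279149 (plus) and Bcl10 at chr3:145924012-145924311 (plus). Capitals mark matches to the motifs searched.
Prkcd: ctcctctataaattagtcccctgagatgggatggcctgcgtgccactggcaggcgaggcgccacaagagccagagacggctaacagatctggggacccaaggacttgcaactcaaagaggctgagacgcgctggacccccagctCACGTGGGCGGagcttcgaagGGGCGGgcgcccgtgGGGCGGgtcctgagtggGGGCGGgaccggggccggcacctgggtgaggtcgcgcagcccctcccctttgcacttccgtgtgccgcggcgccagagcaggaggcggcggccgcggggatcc
Plcg2: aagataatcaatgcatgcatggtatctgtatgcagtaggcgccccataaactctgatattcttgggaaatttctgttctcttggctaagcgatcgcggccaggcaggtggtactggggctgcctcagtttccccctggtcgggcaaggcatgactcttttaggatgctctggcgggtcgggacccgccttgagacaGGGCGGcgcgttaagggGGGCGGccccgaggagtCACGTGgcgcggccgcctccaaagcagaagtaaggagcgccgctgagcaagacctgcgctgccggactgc
Vav1: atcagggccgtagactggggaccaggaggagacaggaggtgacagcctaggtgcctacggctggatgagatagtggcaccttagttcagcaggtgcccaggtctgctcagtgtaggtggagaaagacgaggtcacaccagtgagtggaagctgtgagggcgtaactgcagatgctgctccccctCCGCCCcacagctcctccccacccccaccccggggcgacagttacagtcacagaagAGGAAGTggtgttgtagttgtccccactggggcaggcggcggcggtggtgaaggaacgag
Bcl10: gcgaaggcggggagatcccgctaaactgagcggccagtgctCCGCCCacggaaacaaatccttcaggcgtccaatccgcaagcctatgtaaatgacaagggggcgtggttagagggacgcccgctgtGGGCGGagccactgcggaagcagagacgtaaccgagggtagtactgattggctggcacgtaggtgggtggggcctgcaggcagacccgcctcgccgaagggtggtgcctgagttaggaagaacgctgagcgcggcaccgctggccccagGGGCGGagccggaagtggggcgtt
Both strands of each window were searched for 7 motifs: the octamer ATGCAAAT, the ETS motif AGGAAGT, the E-boxes CACGTG and CAGCTG, the GC box GGGCGG, the NF-kB motif (GGG, any pair of bases, then TTTCC) and the CRE TGACGTCA. CACGTG, the capitals nearest the start in Plcg2 and the first capitals in Prkcd, began 20 bases before the start in Plcg2 and 106 bases before it in Prkcd, where it overlaps a GC box, and 7.15% of all 32851 windows held it. AGGAAGT began 10 bases before the start in Vav1 and was also in the Vav2 window, against 9.35% of all windows. Prkcb alone of the 7 windows used held the octamer (1.74% of all windows) and CAGCTG, at 4 places (16.3%). GC boxes were in 6 of the 7 windows, all but Grb2 (35.7% of all windows), the NF-kB motif in 0 of 7 (1.63%) and the CRE in 0 of 7 (1.79%). The windows not used differ: that of Prkcd held CAGCTG and neither CACGTG nor a GC box, and that of Grb2 held AGGAAGT and CAGCTG and no GC box. Which start these cells use was not tested, and the windows of Grb2 and Vav2 may belong to minor transcripts. Such matches are letters in a window, and binding was not measured.

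**Figure D1:**
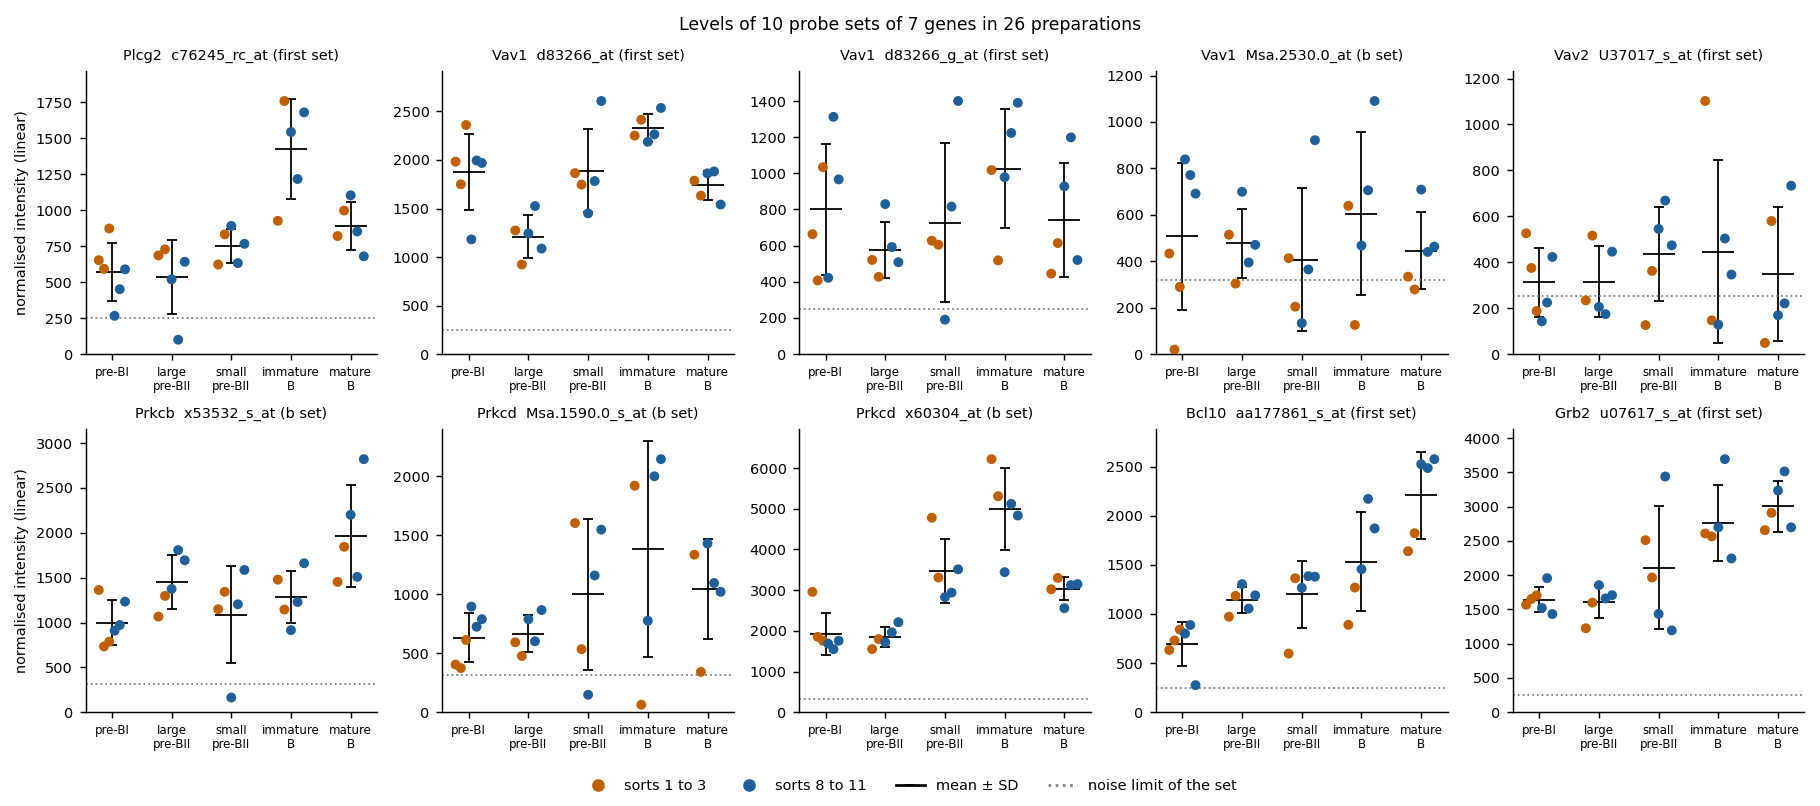
Normalised intensity (linear axis from 0) of the 10 probe sets of 7 genes in the 5 populations, 1 point per preparation, orange for sorts 1 to 3 and blue for sorts 8 to 11, with mean ± SD bars and the noise limit as a dotted line. Prkcd x60304_at, Plcg2 and Vav1 d83266_at have their highest mean in immature B cells, and Bcl10, Grb2 and Prkcb in mature B cells.

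Of the 10 probe sets, 5 varied over the 5 populations by the moderated F test, 1 for each of Prkcd, Bcl10, Grb2, Vav1 and Plcg2, and the other 5 missed the threshold of an adjusted p of 0.05. Over all 10229 probe sets tested, 14.8% varied. In the plot of levels by population, Prkcd, Plcg2 and Vav1 had their highest mean in immature B cells, and Bcl10 and Grb2 in mature B cells. None of those 5 differed past the threshold between mature and immature B cells, with adjusted p-values from 0.0658 (Prkcd) to 0.978 (Grb2). All 10 differences between pairs of populations were tested for each probe set, 16 passed, and in all 16 the later population was the higher one.

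Grb2, the adaptor that links receptors to Ras, was higher in both surface IgM+ populations than in pre-BI and large pre-BII cells. Its probe set u07617_s_at read 1433 to 1956 in the 6 pre-BI preparations (median 1611), 1225, 1599, 1854, 1660 and 1708 in large pre-BII cells, 2510, 1965, 1434, 3439 and 1194 in small pre-BII cells, 2608, 2565, 2697, 3692 and 2244 in immature B cells, and 2656, 2909, 3235, 3514 and 2697 in mature B cells. Every immature and mature B preparation was above every pre-BI and large pre-BII preparation, while small pre-BII cells spanned both ranges. Grb2 rose in mature B cells against pre-BI cells by 0.87 ± 0.22 on the log2 scale (SE, adjusted p = 0.00521) and against large pre-BII cells by 0.90 ± 0.23 (adjusted p = 0.00533). Immature B cells were higher than pre-BI cells by 0.74 ± 0.22 (adjusted p = 0.0241) and than large pre-BII cells by 0.77 ± 0.23 (adjusted p = 0.0254). Those last 2 calls were lost without immature B sort 9, the brightest of its group (adjusted p = 0.101 in both). The call against pre-BI was also lost without pre-BI sort 10 (adjusted p = 0.0526), and that against large pre-BII without large pre-BII sort 1 (adjusted p = 0.0889) or with each array scaled to its 75th percentile (adjusted p = 0.0733). Without normalisation the immature B difference from pre-BI cells was 1.11 (adjusted p = 0.431). Every Grb2 call, those of mature B cells included, was lost without normalisation, within sorts 1 to 3 and within sorts 8 to 11. In the order mature B, immature B, small pre-BII, pre-BI, large pre-BII, no pair of neighbours differed past the threshold.

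Vav1, the exchange factor restricted to blood cells, was lowest in large pre-BII cells and highest in immature B cells on its brightest probe set. d83266_at read 1182 to 2361 in pre-BI cells (median 1976), 1274, 924, 1243, 1525 and 1087 in large pre-BII cells, 1865, 1746, 1450, 1783 and 2608 in small pre-BII cells, 2251, 2415, 2188, 2264 and 2536 in immature B cells, and 1787, 1633, 1862, 1882 and 1541 in mature B cells. The immature and the large pre-BII preparations did not overlap, and the pre-BI and small pre-BII ranges each reached into the large pre-BII range. Immature B cells were higher than large pre-BII cells by 0.96 ± 0.20 (log2 ± SE, adjusted p = 0.0012). Small pre-BII against large pre-BII cells missed the threshold, with a log2 difference of 0.64 ± 0.20 and an adjusted p of 0.0676, which lay between 0.0283 and 0.891 over 15 other ways of processing. Large pre-BII cells also missed the threshold against pre-BI and mature B cells (adjusted p = 0.123 and 0.0954). The variation over the 5 populations (adjusted p = 0.0116) missed the threshold without large pre-BII sort 2, the lowest value (adjusted p = 0.0537). Both this variation and the immature B call were lost without normalisation, within sorts 1 to 3 and within sorts 8 to 11 (adjusted p up to 0.959 and 0.533).

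The other probe sets of Vav1 gave no call. d83266_g_at ranged from 190 to 1400 over the 26 preparations and the b set probe set from 19.4 to 1090, the b set one being above the noise limit in 19 of 26. Their F test p-values were 0.684 and 0.946 after adjustment. Both had their highest mean in immature B cells, 1026 and 606, but the lowest mean was in large pre-BII cells for d83266_g_at (576) and in small pre-BII cells for the b set probe set (407). Over the 26 preparations the log2 level of d83266_at had a Pearson r of 0.63 with d83266_g_at and of 0.09 with that of the b set. Points of these correlations share arrays or preparations and are given as a description.

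Vav2, the more widely expressed relative of Vav1, was close to the noise limit. U37017_s_at was above it in 14 of 26 preparations and ranged from 48.6 to 1102, with the lowest and highest values both in sort 1, in mature and in immature B cells. Its population means lay between 313 in pre-BI cells and 445 in immature B cells, and the F test gave an adjusted p of 0.965.

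**Figure D2:**
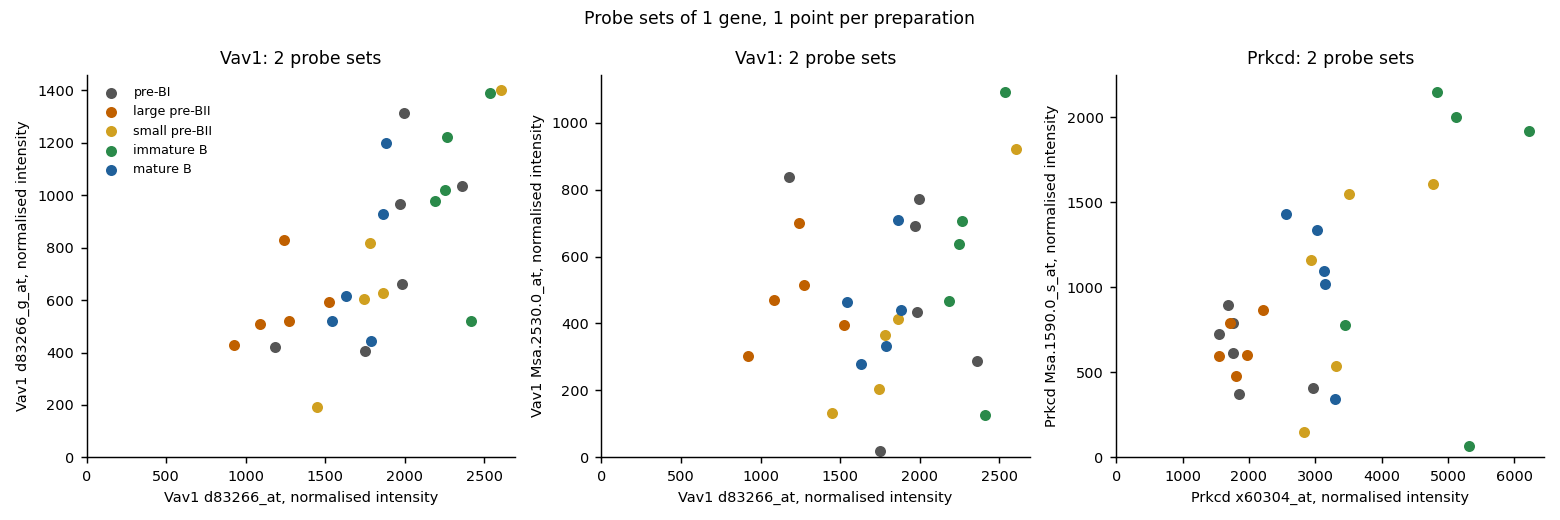
Normalised intensities (linear axes from 0) of pairs of probe sets of Vav1 (left and middle) and Prkcd (right), 1 point per preparation, coloured by population. Vav1 d83266_at and d83266_g_at vary together (r of log2 levels 0.63), while the b set probe set of Vav1 and the second of Prkcd scatter widely (r 0.09 and 0.17).

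Plcg2, the phospholipase that turns the receptor signal into lipid and calcium messengers, was higher in immature B cells than in the earliest populations. c76245_rc_at read 266 to 873 in pre-BI cells (median 591), 685.9, 728, 519, 100 and 642 in large pre-BII cells, 623, 833, 891, 633 and 767 in small pre-BII cells, 926, 1759, 1544, 1217 and 1680 in immature B cells, and 821, 998, 1104, 852 and 680 in mature B cells. All immature B preparations were above all pre-BI, large and small pre-BII preparations, and immature sort 1 lay within the mature B range. The difference between immature B and small pre-BII cells still missed the threshold (log2 difference 0.90 ± 0.39 SE, adjusted p = 0.385). Immature B cells exceeded pre-BI cells by 1.37 ± 0.37 (log2 ± SE, adjusted p = 0.0134) and large pre-BII cells by 1.65 ± 0.39 (adjusted p = 0.00368). Large pre-BII sort 9, at 100, was the only value of this probe set under the noise limit. None of the 4 pairs of neighbours in the order of means, immature B, mature B, small pre-BII, pre-BI, large pre-BII, differed past the threshold.

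Prkcd, a diacylglycerol-activated kinase whose loss in mice lets self-reactive B cells persist, gave the smallest adjusted p of the 10 probe sets (F test, 1.02e-06). x60304_at read 1549 to 2957 in pre-BI cells (median 1757), 1552, 1799, 1718, 1964 and 2213 in large pre-BII cells, 4780, 3310, 2826, 2939 and 3511 in small pre-BII cells, 6219, 5310, 3442, 5119 and 4835 in immature B cells, and 3022, 3300, 2558, 3124 and 3148 in mature B cells. The large pre-BII values lay below every value of the 3 later populations, and only pre-BI sort 1, at 2957, reached into the small pre-BII and mature B ranges. Prkcd rose in small pre-BII against large pre-BII cells by 0.89 ± 0.19 (log2 ± SE, adjusted p = 0.00232), the one member call in a comparison of consecutive stages. With each array scaled to its 75th percentile in place of quantile normalisation, this difference was 0.57 and missed the threshold (adjusted p = 0.253), as it did within sorts 1 to 3 (1.25, adjusted p = 0.107) and within sorts 8 to 11 (0.66, adjusted p = 0.103).

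Against pre-BI cells, Prkcd was higher by 0.86 ± 0.18 in small pre-BII cells (adjusted p = 0.00167), by 1.38 ± 0.18 in immature B cells (adjusted p = 1.27e-06) and by 0.68 ± 0.18 in mature B cells (adjusted p = 0.0107). Against large pre-BII cells it was higher by 1.42 ± 0.19 in immature B cells (adjusted p = 1.95e-06) and by 0.72 ± 0.19 in mature B cells (adjusted p = 0.0101). Scaled to the 75th percentile, 3 of these 5 differences were smaller and missed the threshold: 0.56 in small pre-BII against pre-BI cells (adjusted p = 0.184), 0.44 in mature B against pre-BI cells (0.325) and 0.45 in mature B against large pre-BII cells (0.332). Both mature B differences also missed it without the variance trend (adjusted p = 0.087 and 0.0832) and were 0.35 and 0.33 without normalisation. The mature B mean of 3030 was below the immature B mean of 4985, a log2 difference of −0.70 ± 0.19 that missed the threshold (adjusted p = 0.0658). With the sort number as a replicate block the same difference was −0.69 and passed (adjusted p = 0.0305), and over 15 other ways of processing, that block among them, its adjusted p lay between 0.0273 and 0.683. It also passed without pre-BI sort 1, small pre-BII sort 1 or immature B sort 8 (adjusted p = 0.0337, 0.0465 and 0.0228). In the order immature B, small pre-BII, mature B, pre-BI, large pre-BII, the step between mature B and pre-BI cells was the only one between neighbours that passed.

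The second, dimmer Prkcd probe set of the b set gave no call (F test, adjusted p = 0.949). It read 375 to 896 in pre-BI cells (median 669), 593, 477, 788, 602 and 867 in large pre-BII cells, 1605, 535, 148, 1160 and 1549 in small pre-BII cells, 1921, 64.2, 776, 2002 and 2147 in immature B cells, and 1336, 342, 1431, 1096 and 1021 in mature B cells. Its highest mean was also in immature B cells, but that population held both the lowest and the highest value of the probe set. The lowest reading, in immature sort 2, came from the dimmest array of the b set (75th percentile 86, against a median of 242), on which x60304_at read 5310 after the same normalisation. The r between both probe sets was 0.17.

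Prkcb, the protein kinase C isoform needed for NF-kB activation by the receptor, read highest in mature B cells without passing the test. x53532_s_at read 733 to 1363 in pre-BI cells (median 940), 1066, 1296, 1374, 1807 and 1694 in large pre-BII cells, 1149, 1342, 164, 1203 and 1585 in small pre-BII cells, 1478, 1144, 915, 1229 and 1660 in immature B cells, and 1452, 1843, 2201, 1508 and 2820 in mature B cells. All mature B preparations were above all pre-BI preparations, and the other populations overlapped both. The difference between mature B and pre-BI cells missed the threshold (log2 difference 0.97 ± 0.37 SE, adjusted p = 0.108). The F test gave an adjusted p of 0.207. Without small pre-BII sort 8, the single value under the noise limit, the adjusted p was 0.0307.

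Bcl10, the adaptor between Carma and Malt proteins on the way to NF-kB, had the widest range of population means, 3.18-fold between mature B and pre-BI cells. aa177861_s_at read 276 to 888 in pre-BI cells (median 765), 972, 1184, 1304, 1055 and 1190 in large pre-BII cells, 597, 1364, 1266, 1386 and 1380 in small pre-BII cells, 890, 1269, 1456, 2171 and 1871 in immature B cells, and 1639, 1822, 2524, 2485 and 2576 in mature B cells. Every mature B value was above every pre-BI, large pre-BII and small pre-BII value, and immature B cells overlapped all but pre-BI cells. The difference between mature B and small pre-BII cells still missed the threshold (log2 difference 0.92 ± 0.30 SE, adjusted p = 0.0776). Bcl10 rose in mature B against pre-BI cells by 1.74 ± 0.29 (log2 ± SE, adjusted p = 3.06e-05) and in immature B against pre-BI cells by 1.17 ± 0.29 (adjusted p = 0.00524). Mature B cells were higher than large pre-BII cells by 0.94 ± 0.30 (adjusted p = 0.0364). With the sort number as a replicate block that last difference was 0.76 with an adjusted p of 0.0687, and with 75th percentile scaling 0.81 with an adjusted p of 0.103. It was also lost when any 1 of 7 preparations was left out, large pre-BII sorts 1, 2, 9 or 10 or mature B sorts 8, 9 or 11, with adjusted p-values between 0.0554 and 0.092.

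**Figure D3:**
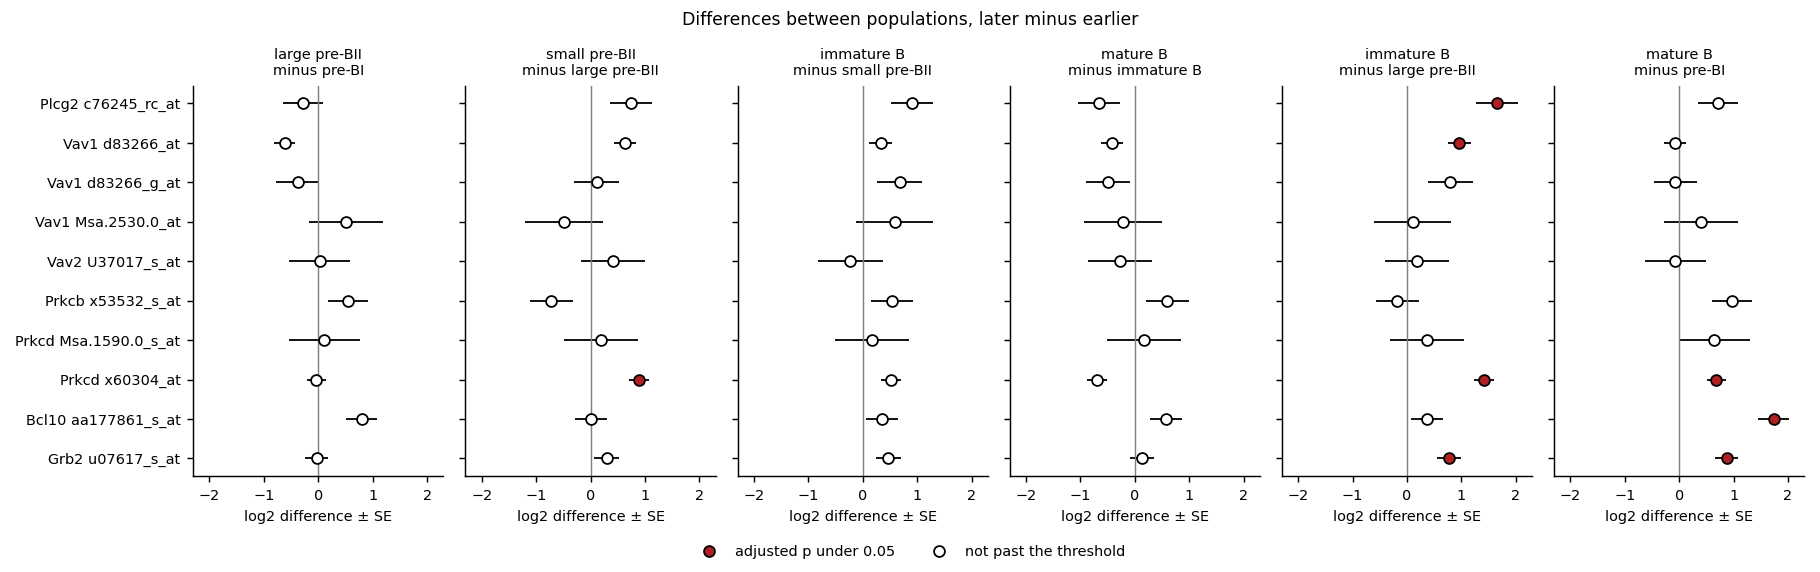
Log2 difference ± SE, later minus earlier population, for each of the 10 probe sets in the 4 consecutive comparisons, in immature B against large pre-BII and in mature B against pre-BI cells. Filled points passed an adjusted p of 0.05: 1 in small pre-BII against large pre-BII, 4 in immature B against large pre-BII and 3 in mature B against pre-BI.

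Read by stage, 1 of the 16 member calls lay between consecutive stages. Over all probe sets, every comparison of stages further apart but 1 gave a higher share of calls than any consecutive one. The exception was mature B against small pre-BII cells (4.59%), below the 5.3% of small against large pre-BII cells. In large pre-BII against pre-BI cells 0 of 10 probe sets passed, where 1.87% of all probe sets did, 2 had an unadjusted p under 0.05 and the median log2 difference of the 10 was −0.0048. In small pre-BII against large pre-BII cells 1 of 10 passed, Prkcd, against 5.3% of all, 2.03% being higher. The median difference there was 0.25, beside 0.06 over all probe sets tested. In immature B against small pre-BII cells 0 of 10 passed, against 2.19% of all. 3 had an unadjusted p under 0.05, and 9 of 10 were positive with a median of 0.50, beside −0.02 over all. In mature B against immature B cells 0 of 10 passed, against 1.35% of all, 2 had an unadjusted p under 0.05 and the median was −0.25, beside 0.01 over all. The 3 Vav1 and 2 Prkcd probe sets enter these medians separately, and consecutive comparisons share a population.

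Between more distant stages, 3 of 10 passed in mature B against pre-BI cells, Prkcd, Bcl10 and Grb2, where 10.8% of all probe sets passed, 4.78% being higher. 4 of 10 passed in immature B against pre-BI cells, Plcg2, Prkcd, Bcl10 and Grb2, where 8.7% of all passed and 4.3% were higher. All 10 differences in that comparison were positive, with a median of 0.55 beside 0.01 over all probe sets. 4 of 10 passed in immature B against large pre-BII cells, Plcg2, Vav1, Prkcd and Grb2, against 8.09% of all, 4% being higher. In mature B against large pre-BII cells 3 of 10 passed (10.9% of all, 5.23% higher), in small pre-BII against pre-BI cells 1 of 10 (7.86% of all, 3.29% higher), and in mature B against small pre-BII cells 0 of 10 (4.59%), 3 with an unadjusted p under 0.05. These comparisons share their pre-BI, large pre-BII or mature B preparations.

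The 16 called differences had the same sign in both ranges of sorts taken alone, as the plot by range of sorts shows. They were called on the preparations of both ranges pooled, so the shared sign is no independent check. Within sorts 8 to 11, 3 of 10 probe sets varied by the F test, and 8 of the 16 differences passed, all of them of Prkcd, Plcg2 and Bcl10. Within sorts 1 to 3, 1 of 10 varied and 2 of the 16 passed, Prkcd in immature B against pre-BI cells (1.43, adjusted p = 0.0183) and against large pre-BII cells (1.78, adjusted p = 0.00939). The size depended most on the range for Plcg2 in immature B cells and for Bcl10 in immature B against pre-BI cells. For Plcg2 the difference from large pre-BII cells was 0.85 in sorts 1 to 3 and 2.19 in sorts 8 to 11. That from pre-BI cells was 0.87 and 1.83. For Bcl10 the values were 0.54 and 1.64. Single low values enter these gaps. For Plcg2 the lowest large pre-BII value (100, sort 9, under the noise limit) and pre-BI value (266, sort 8) lie in sorts 8 to 11. The lowest pre-BI value of Bcl10 (276, sort 10) does too. The lowest immature B values of Plcg2 (926) and Bcl10 (890) are both of sort 1. The differences between ranges, and the part of these values in them, were not tested. On the intensities as deposited, without normalisation, 2 of the 16 passed, the same 2 of Prkcd (adjusted p = 0.00969 and 0.0174), and with 75th percentile scaling 6 of the 16 were lost, 4 of Prkcd and 1 each of Bcl10 and Grb2.

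**Figure D4:**
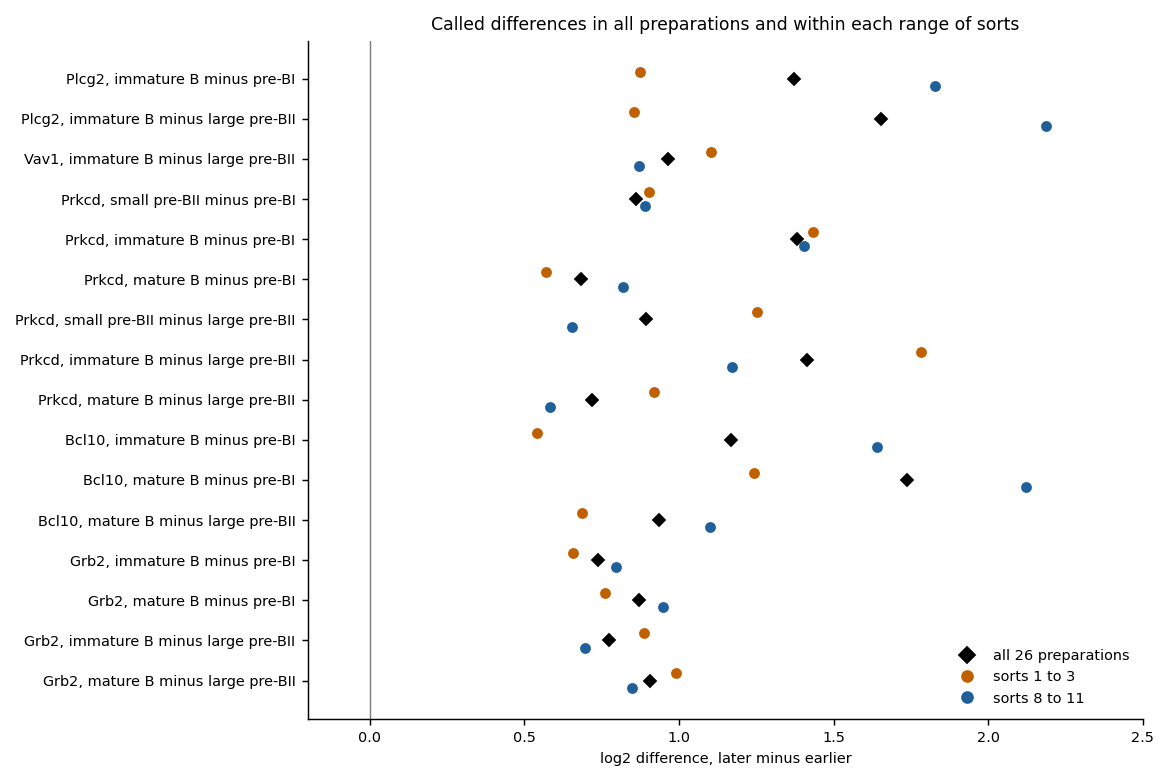
The 16 called log2 differences, later minus earlier population, from all 26 preparations (diamonds), from sorts 1 to 3 (orange) and from sorts 8 to 11 (blue). All 48 points lie above 0. The Plcg2 pairs and the Bcl10 pair for immature B against pre-BI cells lie furthest apart.

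Transcripts of other cells were present in these preparations, at levels that differed over the populations for some lists and less for others. The summed level of 15 granulocyte and monocyte markers, led by Lyz2 and Ngp, ranged from 6648 to 20974 in pre-BI cells (median 13074), from 4913 to 11666 in large pre-BII cells (6014), from 4498 to 6522 in small pre-BII cells (5271), from 5642 to 8208 in immature B cells (7991) and from 8127 to 12039 in mature B cells (9042). Lyz2 and Ngp were above the noise limit in 26 of 26 preparations, S100a9 in 21, Cd14 in 19, S100a8 in 18, Prtn3 in 9, Lcn2 and Camp in 6 each and Elane in 2. Mpo, Csf1r, Csf3r, Ctsg, Ltf and Fcgr3 were above it in 0 of 26. Of 10 T and NK cell markers, Gzma (mean 1333) was the one above the limit in most pre-BI preparations. Cd3e was above it in 6 of 26, with means of 241 in large and 243 in small pre-BII cells and 3.88 in pre-BI cells, Thy1 in 2, Cd247 and Cd4 in 1 each, and Cd3d, Cd3g, Cd8a, Zap70 and Gzmb in 0. The median sum of these T and NK cell markers was 1884 in pre-BI cells, 882 in large and 759 in small pre-BII cells, 542 in immature and 614 in mature B cells. The sum of 5 erythroid and megakaryocyte markers, led by Hba-a1, a haemoglobin gene above the limit in 26 of 26, and Slc4a1, had medians of 12339, 13186, 11135, 10984 and 12446 in the same order. That of 4 plasma cell markers, led by Xbp1 and Jchain, had medians of 489.95, 462, 677.5, 695 and 529.7. These 4 were mostly near or under the noise limit, with Xbp1 above it in 13 of 26, Jchain in 5, Prdm1 in 2 and Sdc1 in 0. The part of these cells in the member differences was not tested. The summed level of 8 B lineage markers, led by Ighm and Cd79b, had medians of 24114, 30377, 44544, 53838 and 49494 in the same order, and ranged from 16716 to 28186 in pre-BI cells and from 51603 to 60864 in immature B cells. The 8 markers did not move together. Cd22 averaged 58.2 in pre-BI and 3677 in mature B cells, while Ebf1 averaged 1729 and 621. Pax5 was above the noise limit in 1 of 26 preparations. The part of these B lineage sums in the member differences was not tested.

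The rest of the pathway was described with 7 lists of 120 genes, of which 64 were on the arrays and 52 were tested, each by its brightest probe set. By the F test 21 of 52 varied, against 19.5% of all 5028 genes tested. In mature B against pre-BI cells 12 of 52 were higher and 4 lower, where 5.91% and 8.15% of all genes were. In large pre-BII against pre-BI cells 4 were higher and 2 lower (2.8% of all genes passed), in small pre-BII against large pre-BII cells 4 and 2 (6.7%), in immature B against small pre-BII cells 0 and 1 (2.9%), and in mature B against immature B cells 1 and 1 (1.75%).

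Most of the receptor-proximal genes that were tested rose. In mature B against pre-BI cells 5 of 8 were higher and 0 lower, with a median log2 difference of 1.15 beside 0.04 over all genes. Tec, a kinase related to Btk, averaged 2749 ± 633 in mature B and 476 ± 177 in pre-BI cells (SD, n = 5 and 6; log2 difference 2.60 ± 0.27 SE, adjusted p = 1.07e-08). Blk, a Src family kinase of B cells, averaged 9254 ± 1288 in mature B and 2330 ± 581 in pre-BI cells (2.02 ± 0.19, adjusted p = 1.29e-09). The receptor chains Cd79a and Cd79b rose by 1.46 ± 0.33 and 0.96 ± 0.21 in small pre-BII against large pre-BII cells (adjusted p = 0.00372 and 0.00297), the same comparison in which Prkcd was called. The fifth gene was Syk.

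Beside Plcg2, 10 other phospholipase and calcium genes were tested, and 2 were higher and 0 lower in mature B against pre-BI cells (median 0.30). Ppp3ca, which encodes 1 of several catalytic subunits of calcineurin, averaged 1140 ± 68.1 in mature B and 453 ± 190 in pre-BI cells (1.44 ± 0.29, adjusted p = 0.000482). Itpr2, an inositol trisphosphate receptor, rose by 1.26 ± 0.41 (adjusted p = 0.0452), a call lost in 14 of 26 fits that left out 1 preparation. Calm2, a calmodulin gene, was higher in large pre-BII than in pre-BI cells (0.87 ± 0.23, adjusted p = 0.0488) and lower in small pre-BII than in large pre-BII cells (−0.83 ± 0.25, adjusted p = 0.0418), calls lost in 20 and 8 of 26 such fits. Of 4 genes of PI3 kinase and Akt, Inpp5d, a lipid phosphatase that opposes PI3 kinase, fell by 1.14 ± 0.27 in large pre-BII against pre-BI cells (adjusted p = 0.0168), averaging 1133 against 2597. That call was lost without pre-BI sort 3, pre-BI sort 9 or large pre-BII sort 10 (adjusted p up to 0.0667).

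Single genes around Rac were also called in mature B against pre-BI cells. Tiam1, a Rac exchange factor like the Vav proteins, averaged 84.0 in mature B cells, where no preparation was above the noise limit, and 1765 in pre-BI cells, at least 7.02-fold lower in mature B cells when the limit stands in for its level (adjusted p = 1.42e-08). Dock2, another Rac exchange factor, rose by 0.92 ± 0.22 and the GTPase Cdc42 by 0.79 ± 0.21 (adjusted p = 0.00438 and 0.00944).

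Of 8 other protein kinase C family genes and substrates, 0 were higher and 2 lower in mature B against pre-BI cells, both substrates (median 0.10). Marcks, an actin-binding substrate of protein kinase C, averaged 170 in mature B cells, under the noise limit in all 5, and 801 in pre-BI cells, at least 2.51-fold lower (adjusted p = 5.69e-06), and it was at least 2.74-fold lower in mature B than in immature B cells (mean 874, adjusted p = 4.06e-05). Its highest mean, 2035, was in small pre-BII cells. From there to immature B cells Marcks fell by 1.24 ± 0.34 (adjusted p = 0.046), a call lost in 14 of 26 fits that left out 1 preparation. Its relative Marcksl1 averaged 1590.4 in mature B and 3697 in pre-BI cells (−1.29 ± 0.37, adjusted p = 0.0179), a call lost without pre-BI sort 3, mature B sort 1 or mature B sort 11 (adjusted p up to 0.0991). Of 8 genes of the route from Carma and Malt to NF-kB, 2 were higher and 0 lower in mature B against pre-BI cells (median 0.64). Nfkbia, the NF-kB inhibitor that NF-kB itself induces, averaged 3830 ± 1268 in mature B and 1234 ± 325 in pre-BI cells (1.63 ± 0.23, adjusted p = 5.19e-06) and was also higher in large pre-BII than in pre-BI cells (3545 ± 846, 1.54 ± 0.23, adjusted p = 0.00011). Its highest mean, 6209, was in small pre-BII cells. That level missed the threshold against large pre-BII and immature B cells (adjusted p = 0.0514 and 0.158). Relb, an NF-kB subunit, rose by 1.31 ± 0.38 in mature B against pre-BI cells (adjusted p = 0.0176), a call lost without pre-BI sort 10, mature B sort 1 or mature B sort 3 (adjusted p up to 0.0621).

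Of 7 other adaptors and Ras and MAP kinase genes, 1 was higher and 0 lower in mature B against pre-BI cells (median −0.04). Map2k1, the kinase that activates ERK, averaged 1321 ± 474 in mature B and 337 ± 170 in pre-BI cells (2.05 ± 0.39, adjusted p = 0.000246). Shc1, an adaptor that binds Grb2, averaged 375 ± 226 in small pre-BII and 934 in large pre-BII cells (−1.52 ± 0.45, adjusted p = 0.0429), a call lost in 8 of 26 fits that left out 1 preparation. Of the 28 differences of pathway genes tracked through other settings, 21 missed the threshold within sorts 1 to 3, 13 within sorts 8 to 11, 19 without normalisation and 6 with 75th percentile scaling, all with the same sign. Those lost within sorts 1 to 3 include Map2k1 (1.34, adjusted p = 0.191) and, in large pre-BII against pre-BI cells, Nfkbia (1.39, adjusted p = 0.142), and Marcksl1 was −0.86 within sorts 8 to 11 (adjusted p = 0.226).

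**Figure D5:**
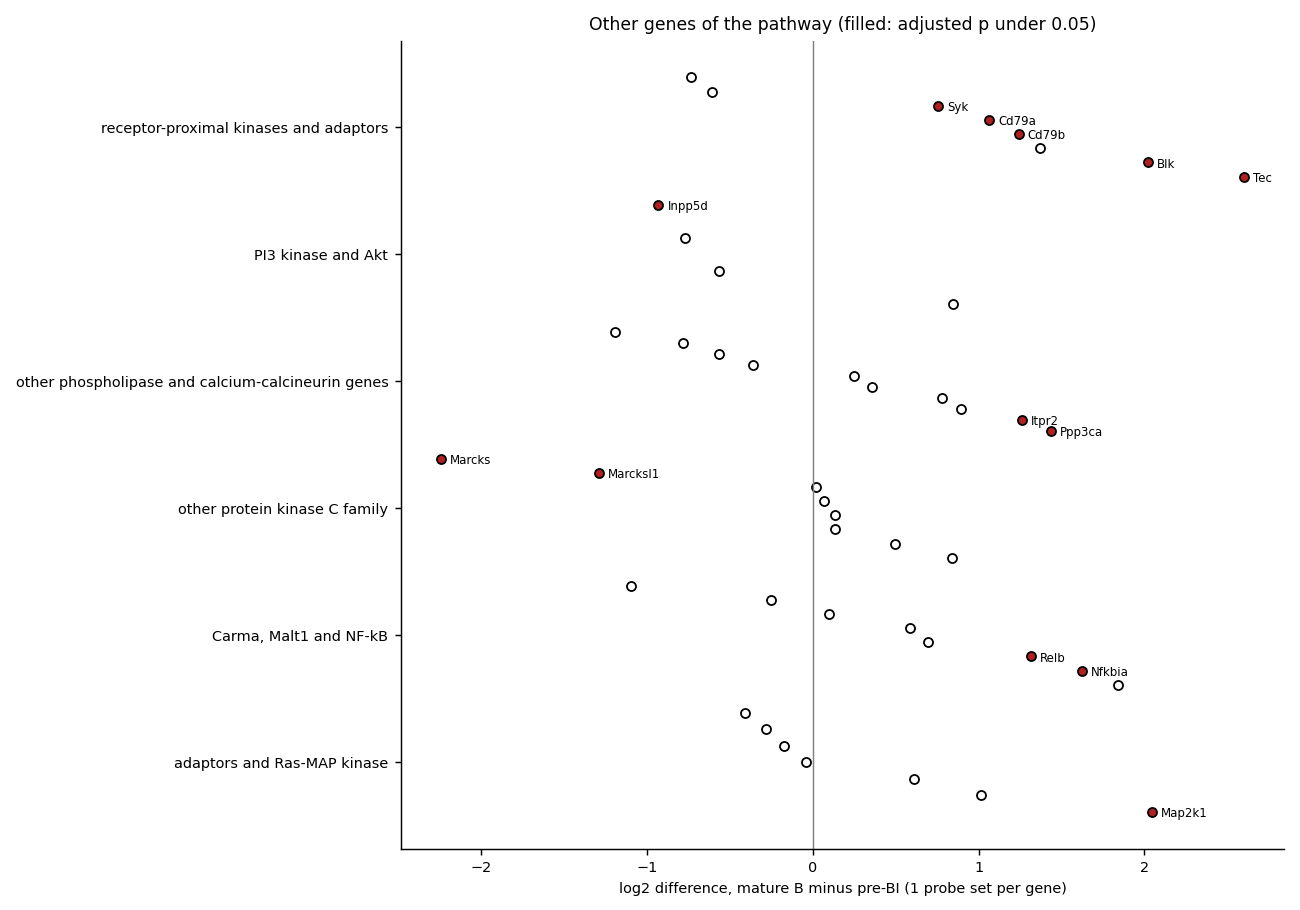
Log2 difference, mature B minus pre-BI cells, of 45 tested genes in 6 of the 7 pathway lists, 1 point per gene at its brightest probe set. Filled and named points passed an adjusted p of 0.05: 10 were higher and 3 lower in mature B cells.

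Across the 26 preparations, the genes most like each varying member were found by Pearson r of log2 levels, as a description. Closest to Prkcd were Ly6d (r = 0.88), Fam3c (0.87) and Mcl1 (0.84), a survival gene of the Bcl2 family. Closest to Bcl10 were Tmem50b (0.85), Ptp4a2 (0.81) and Stxbp3 (0.81), and closest to Grb2 were Eif4a2 (0.81), Scd1 (0.80) and Extl3 (0.80). Closest to Plcg2 were Gucd1 (0.83), Traf3ip2 (0.83) and Creb3 (0.79), and closest to Vav1 were Chd4 (0.77), Cd37 (0.77) and Ifi47 (0.76). Of these genes, Creb3, Chd4 and Extl3 did not themselves pass the F test over the populations (adjusted p = 0.193, 0.0841 and 0.148). Among the members themselves, each at its brightest probe set, the highest r was 0.59, between Bcl10 and Grb2, and Vav1 and Prkcd followed with 0.58. Within populations, after each population's mean was taken off, these were 0.14 and 0.14. All such points share arrays and normalisation.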

How the data were processed

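RNA of 5 sorted B lineage populations was measured on 2 oligonucleotide array sets. The values, computed and deposited by the authors, are 1 intensity per probe set and array on a linear scale with negative values (per array 19.6 to 27.8% in the first set and 33.9 to 42.4% in the b set). Extraction, scanning, summarising and scaling are not given in the sources used here. Populations and sort numbers come from the labels. The 54 distinct arrays gave 26 preparations, and second arrays of a preparation were averaged. Members, gene lists, tests and the rule for named genes were chosen with earlier results of these data known.

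After removal of 110 control probe sets, each table was quantile-normalised between arrays. For the test, a floor was set at each table's 40th percentile, 87.6 and 6.89, before log2 was taken. Levels in the text are before that floor. The 5019 and 5210 probe sets that exceeded the floor in 5 or more of the 26 preparations were tested with limma 3.58.1 in R 4.3.3 (1 fit per array set, eBayes with a trend, no covariate) and Benjamini-Hochberg adjustment over both sets within each comparison, at a threshold of 0.05. "Rose", "fell" and "changed" are written only of differences past that threshold. The noise limit is 2 robust standard deviations, estimated from negative values. The number of arrays limits the precision. On simulated data for mature B against pre-BI cells, with 200 of 13069 probe sets changed by 1 on the log2 scale, 38.5% were recovered with 3 false calls. The changed probe sets were drawn from those with a mean above the noise limit. Noise was independent between arrays, and no further normalisation or floor was applied, so the share recovered does not describe dimmer probe sets.

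Of 13069 probe sets, 7553 have 1 symbol, 224 several and 5292 none. 7544 were matched to RefSeq by Entrez ID, which changed 0 symbols. Named genes are all members, up to 4 genes per pathway list with the largest difference past the threshold in a consecutive comparison or in mature B against pre-BI, the 3 genes most like each varying member and the 2 brightest of each marker list. The counts of 1 pathway list are not reported here. Syk, the sort markers and the dimmer markers were named after their values were seen.

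Sort numbers recur across populations. The correlation of deviations from the population means between preparations of the same sort number was 0.114 to 0.297 for large pre-BII and pre-BI (5 pairs), 0.137 to 0.251 for immature B and small pre-BII (3) and 0.116 to 0.205 for mature and immature B (4), where every pair was over 0.1. It was 0.00324 to 0.243 for small and large pre-BII (1 of 4 over 0.1) and 0.0596 to 0.242 for mature B and pre-BI (3 of 4).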

Additional observations from a re-analysis of the deposited data

Results flagged for a closer look

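Of 50 groups (10 probe sets in 5 populations), 2 held a sample far from the others by Dixon's criterion, which chance gives in about 1 of 20 groups. Prkcd x60304_at read 2957 in pre-BI sort 1, where the other 5 pre-BI preparations read 1549 to 1852. Bcl10 aa177861_s_at read 597 in small pre-BII sort 1, where the other 4 read 1266 to 1386. Without pre-BI sort 1, Prkcd was higher than in pre-BI cells by 0.99 in small pre-BII, 1.51 in immature B and 0.81 in mature B cells on the log2 scale (adjusted p = 0.000197, 1.93e-07 and 0.00138). The 3 called differences of Bcl10 are not between small pre-BII and other cells. The value of 597 still enters its F test and, through the shared spread, the SE of those differences. The adjusted p of the Bcl10 F test was at most 0.00169 when any 1 preparation was left out.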

How the results depend on the processing

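No result changed direction in 15 other ways of processing or in 26 fits that each left out 1 preparation. The 5 varying probe sets became 1 without normalisation and 1 within sorts 1 to 3, and 3 within sorts 8 to 11. Leaving out 1 preparation gave 4 to 6. The 1 call in small pre-BII against large pre-BII cells became 0 without normalisation, with 75th percentile scaling, within sorts 1 to 3 and within sorts 8 to 11. It became 2, with Vav1 added, with trimmed mean scaling, a floor at the 60th percentile or at the noise limit, no filter, a filter at the noise limit, or both array sets in 1 fit, an alternative chosen after seeing the data. The 0 calls in mature B against immature B cells became 1, Prkcd, with the floor at the 60th percentile or the noise limit, the filter at the noise limit, the sort number as a replicate block and the sort range as a block. The 3 calls in mature B against pre-BI cells became 0 without normalisation and within sorts 1 to 3, 2 with 75th percentile scaling and with no trend (Prkcd lost) and within sorts 8 to 11 (Grb2 lost), and 4 with the floor at the noise limit. Of the 16 called member differences, 14 were lost without normalisation, 14 within sorts 1 to 3, 8 within sorts 8 to 11, 6 with 75th percentile scaling, 2 with no trend and 1 with the sort number as a replicate block, and 0 in the 9 other ways. Leaving out 1 preparation gave 0 to 1 calls in large pre-BII against pre-BI cells (Vav1, lower by −0.75, adjusted p = 0.0279, without pre-BI sort 8), 1 to 2 in small pre-BII against large pre-BII cells (2 without pre-BI sort 8, large pre-BII sort 9 or small pre-BII sort 8), 0 in immature B against small pre-BII cells, 0 to 1 in mature B against immature B cells and 3 to 4 in mature B against pre-BI cells. The replicate block changed 2 member calls, Prkcd in mature B against immature B (−0.69, adjusted p = 0.0305) and Bcl10 in mature B against large pre-BII (0.76, adjusted p = 0.0687), and no other. Over all probe sets it gave 327 calls in large pre-BII against pre-BI cells, against 191 without it. Of all probe sets 1509 varied, against 744 without normalisation and 427 within sorts 1 to 3. The calls over all probe sets in large pre-BII against pre-BI (191), small against large pre-BII (542), immature B against small pre-BII (224), mature against immature B (138) and mature B against pre-BI cells (1106) became 48, 227, 75, 53 and 528 without normalisation and 15, 114, 39, 31 and 373 within sorts 1 to 3. Within sorts 8 to 11 the 191, 224 and 138 calls became 79, 136 and 73, and with the floor at the 60th percentile the 191 became 289. Within a range of sorts fewer preparations enter the fit. For the others the cause was not tested. Of the 5 probe sets with no call, those of Vav2 and of Vav1 on the b set were above the noise limit in 14 and 19 of 26 preparations, and Vav1 d83266_g_at, the second of Prkcd and Prkcb in 25, 24 and 25.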

Other observations

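Large pre-BII cells differed from pre-BI cells in pathway genes other than the 7 followed here. Blk averaged 5856 ± 633 in large pre-BII and 2330 ± 581 in pre-BI cells (log2 difference 1.36 ± 0.19 SE, adjusted p = 2.51e-05), and Tiam1 averaged 435 ± 176 in large pre-BII and 1765 in pre-BI cells (−2.08 ± 0.41, adjusted p = 0.00286). Tec rose in small pre-BII against large pre-BII cells, 1536 ± 218 against 417 ± 117 (1.92 ± 0.28, adjusted p = 1.3e-05). All 3 differences missed the threshold within sorts 1 to 3 (adjusted p = 0.284, 0.247 and 0.0768), those of Blk and Tiam1 also without normalisation (0.411 and 0.321), and that of Tiam1 also within sorts 8 to 11 (0.237) and with the floor at the 25th percentile (0.441).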
